A study of Mus musculus with 6 samples.

Results

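Genes of mitochondrial fatty acid oxidation were followed in left ventricular RNA: 32 named members, from fatty acid activation to electron transfer, each found by its symbol on 1 row of a table of 52550 genes. The members came as a list from the pathway and not from a threshold on these values. The list was, however, chosen with earlier results of these data known, so the shares below carry no test over the list. The list is wider than the oxidation spiral itself, since it also holds thioesterases, an acetate-activating enzyme, a carnitine transporter and acetyl-CoA carboxylase beta. The samples were 3 libraries labelled PKI, from C57BL/6J mice whose genotype is given as PGC1alpha overexpressed, and 3 libraries labelled WT, from wild-type C57BL/6J mice. All animals were 12 months old, and the labels do not give the allele or promoter behind the overexpression, the sex, or whether each library came from a separate animal. The p-values therefore measure only the spread between these libraries, which may be technical. The question set by the design is how ventricular transcripts differ between PKI and WT at this age.

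Heart muscle draws most of its ATP from long-chain fatty acids. A fatty acid is first joined to coenzyme A, then carried into the mitochondrion as a carnitine ester through CPT1 and CPT2, and shortened there in repeated rounds of dehydrogenation, hydration, a second dehydrogenation and thiolysis. The first dehydrogenation passes electrons to the electron transfer flavoprotein and on to ubiquinone. PGC-1α, encoded by Ppargc1a, is a coactivator of the nuclear receptors PPARα and ERRα and of NRF1, which drive many of these genes.

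Values are FPKM, fragment densities set against transcript length and the mapped total of the library, so levels can be set against each other between genes. The FPKM of a library summed to 708058 to 726064 in PKI and 747154 to 767757 in WT. Read totals are not given. The most common ratio of values in genes under 0.1 FPKM put the depth of the 6 libraries at 0.920 to 1.11 times that of PKI replicate 1. That ratio was sought only within a set range, so larger differences in depth could not have been found. Transcripts of the mitochondrial genome and their nuclear copies took 78.0% to 78.2% of FPKM in PKI and 81.8% to 82.3% in WT. Most other genes lay higher in PKI: the median log2 change over 9907 tested genes was 0.21. The part of the mitochondrial share in this rise was not tested. Each result is therefore also given after scaling by median-of-ratios size factors (1.09 to 1.12 in PKI, 0.906 to 0.926 in WT), which moved that median to −0.0011.

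Ppargc1a itself did not show the overexpression that the labels name. It read 11.6, 11.8 and 11.4 FPKM in PKI libraries, against 14.2, 12.8 and 12.4 FPKM in WT libraries (log2 change −0.16, SE 0.069, adjusted p = 0.0967; after scaling log2 change −0.42, adjusted p = 0.00663). All PKI values lay below all WT values, and directions below are those of libraries so labelled.

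Most enzymes of fatty acid oxidation were lower in PKI than in WT ventricles, and 2 acyl-CoA synthetases (Acsl3 and Acsl5) and 2 thioesterases (Acot9 and Acot13) were higher as deposited, of which Acsl5 and Acot9 were also higher after scaling. Of 31 members that reached a mean of 1 FPKM, 17 fell (54.8%, against 2.96% of all tested genes) and 4 rose (12.9%, against 36.4% of all tested genes), at an adjusted p under 0.05 in limma. After scaling, 23 were lower (74.2%, against 8.23%) and 2 higher (6.45%, against 8.54%). The same 17 members were lower in both fits, and 6 more were lower after scaling but not as deposited. Of these 6, Acsl1, Cpt2 and Acadl did not pass under every other scaling tried, as given below. The median log2 change of the tested members was −0.24 as deposited and −0.50 after scaling. Acad10, an acyl-CoA dehydrogenase family member, stayed under the level for testing at 0.685, 0.578 and 0.634 FPKM in PKI libraries, against 0.676, 0.558 and 0.460 FPKM in WT libraries.

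**Figure D1:**
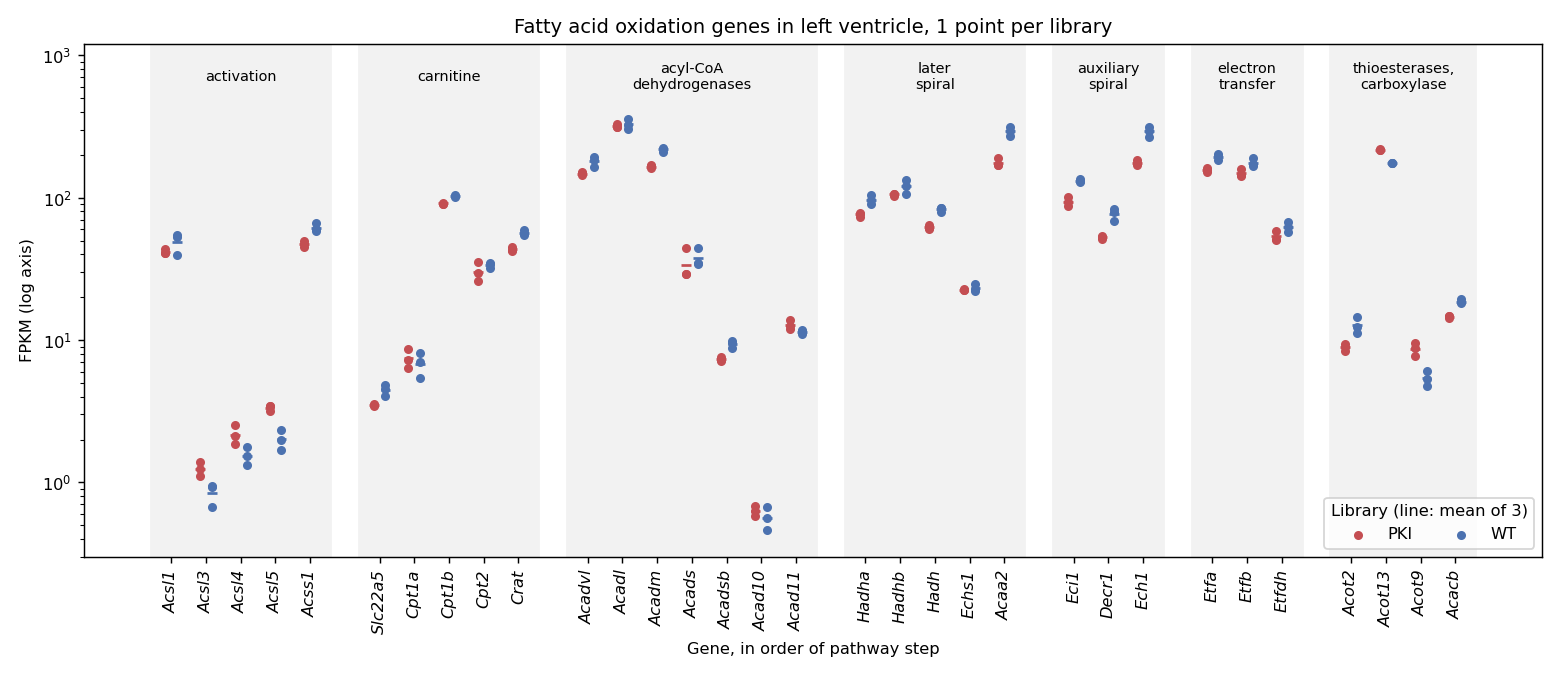
FPKM (log axis) of the 32 members in each library, PKI left of WT, in order of pathway step; points are libraries and lines are means of 3. For most genes from Acadvl to Etfdh the PKI points sit below the WT points, with Ech1 at 168 to 184 FPKM against 266 to 314 FPKM, while Acsl5, Acot13 and Acot9 sit above.

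The counts were also set against genes of similar level. Of the 21 members with a mean of at least 20 FPKM, 13 fell (61.9%), against 8.52% of the 1127 tested genes at that level, and 1 rose, Acot13 (4.76%, against 40.9%); after scaling 19 were lower (90.5%), against 24.2%, and 0 higher, against 10.6%. Of the 10 tested members below that level, 4 fell (40%, against 2.24% of the 8780 tested genes at that level) and 3 rose (30%, close to the 35.9% of those genes). After scaling 4 of the 10 were lower, against 6.17%, and 2 higher, against 8.28%. The division at 20 FPKM was chosen after the values were seen. All PKI libraries lay below all WT libraries for 17 tested members (54.8%, against 4.53% of all tested genes) and above them for 6 (19.4%, against 51.3%); the other 8 overlapped. After scaling they lay below for 23 (74.2%, against 18.4%) and above for 3 (9.68%, against 18.6%).

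**Figure D2:**
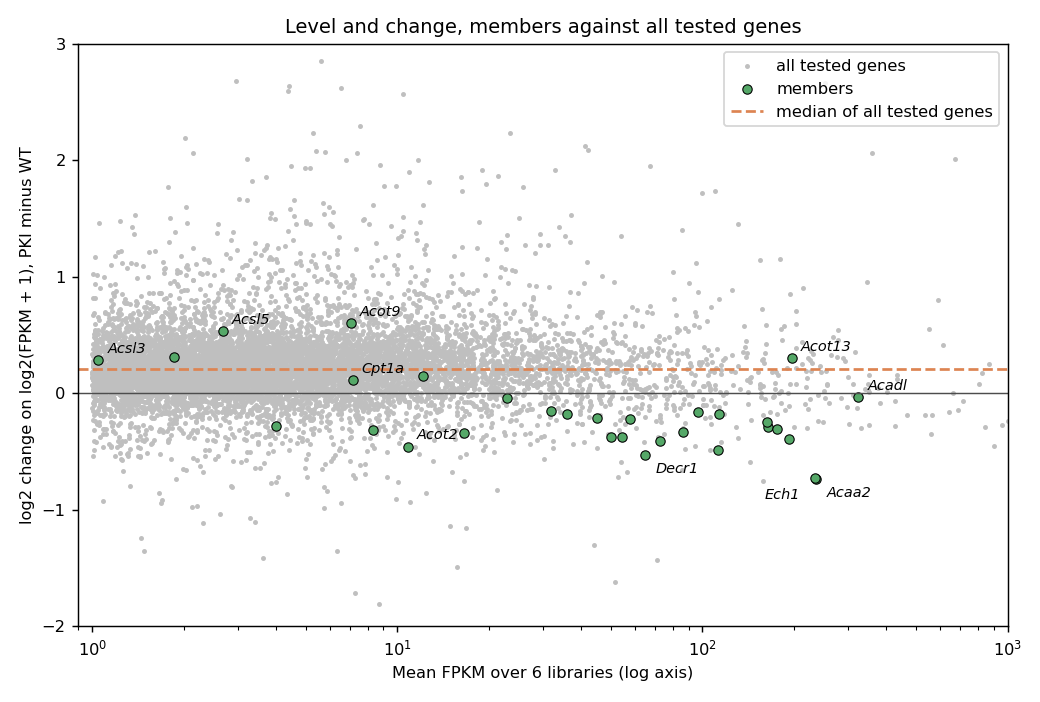
Log2 change on log2(FPKM + 1), PKI minus WT, against mean FPKM (log axis) for the 31 tested members (green) and all 9907 tested genes (grey), with 43 genes outside the axes. Members above 20 FPKM lie below the dashed all-gene median of 0.21, Acot13 excepted, and Ech1 and Acaa2 lie lowest at −0.73 and −0.74.

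In bulk tissue, fewer cells of a type and less RNA per cell cannot be told apart. Cardiomyocyte markers were strong in every library, with a summed level of 11333 to 12297 FPKM in PKI and 10811 to 11611 FPKM in WT; of 10 tested, 3 fell and 2 rose as deposited, and 6 were lower after scaling. Marker counts are to be read against the shares of all tested genes, 2.96% lower and 36.4% higher as deposited, and 8.23% lower and 8.54% higher after scaling. Fibroblast markers rose in 9 of 10 tested (9 after scaling), with a summed level of 278 to 356 FPKM in PKI and 90.8 to 134 FPKM in WT. Macrophage markers rose in 8 of 9 tested (7 after scaling), at 214 to 232 FPKM in PKI and 71.3 to 110.2 FPKM in WT. Endothelial markers rose in 4 of 10 as deposited (40%, close to the share of all tested genes), while 0 were higher and 1 was lower after scaling, at 96.5 to 104 FPKM in PKI and 84.3 to 88.8 FPKM in WT, and smooth muscle and pericyte markers rose in 4 of 8 (1 higher and 1 lower after scaling), at 189 to 227 FPKM in PKI and 125 to 154 FPKM in WT. Of the red blood cell markers, all 5 tested were lower, also after scaling, at 274 to 338 FPKM in PKI and 380.0 to 538 FPKM in WT. Of 6 atrial markers 1 rose, also after scaling: Nppa, a natriuretic peptide gene named after its values were seen, at 654, 1477 and 1134 FPKM in PKI libraries, against 233, 209.8 and 339 FPKM in WT libraries. It made up most of the summed level of 669 to 1499.5 FPKM in PKI and 274 to 482 FPKM in WT. The other 5 had negative log2 changes and did not pass, and the median over the 6 was −1.03. Myl7, the atrial myosin light chain, read 6.61, 14.8 and 81.9 FPKM in PKI libraries, against 74.3, 40.5 and 91.3 FPKM in WT libraries, so that PKI replicates 1 and 2 lay below PKI replicate 3 and all WT libraries, as they also did for Myl4 and Sln, all 3 named after their values were seen. Of 6 adipocyte markers 1 reached the level for testing and did not pass, at 1.53 to 5.89 FPKM in PKI and 0.192 to 2.18 FPKM in WT. Every marker of these lists was above 0 in at least 1 library. The part of these shifts in the changes of oxidation genes was not tested.

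Activation of fatty acids is done by long-chain acyl-CoA synthetases, and the forms moved apart. Acsl1, the main form in heart, read 40.9, 43.4 and 40.6 FPKM in PKI libraries, against 52.5, 39.8 and 54.2 FPKM in WT libraries. The groups overlapped, since WT replicate 2 lay below every PKI library, and the gene did not pass as deposited (log2 change −0.21, SE 0.12, adjusted p = 0.177). It was lower after scaling (log2 change −0.48, adjusted p = 0.0292) and without WT replicate 2 (log2 change −0.35, adjusted p = 0.0164). Scaled instead to the FPKM total of nuclear genes it did not pass (adjusted p = 0.0524), and with quantile normalisation it did (adjusted p = 0.0263). Acsl5, a form better known from intestine and liver, rose 1.67-fold, at 3.17, 3.44 and 3.42 FPKM in PKI libraries, against 2.35, 1.68 and 1.99 FPKM in WT libraries (log2 change 0.54, SE 0.095, adjusted p = 0.00640; after scaling log2 change 0.34, adjusted p = 0.0470). All PKI libraries lay above all WT libraries, from a low base.

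Acsl3, a synthetase of the endoplasmic reticulum and lipid droplets, read 1.24, 1.39 and 1.11 FPKM in PKI libraries, against 0.939, 0.936 and 0.667 FPKM in WT libraries. It passed narrowly as deposited (log2 change 0.28, SE 0.093, adjusted p = 0.0474) but not after scaling (adjusted p = 0.335) or without any single library (adjusted p = 0.0598 to 0.136). Acsl4, which prefers arachidonate, read 1.85, 2.51 and 2.11 FPKM in PKI libraries, against 1.77, 1.52 and 1.33 FPKM in WT libraries and just missed the threshold (log2 change 0.31, SE 0.10, adjusted p = 0.05003). It passed without PKI replicate 1 (adjusted p = 0.0466) or WT replicate 1 (adjusted p = 0.0442), and after scaling the adjusted p was 0.408. Shares within a library do not depend on scaling. As a percent of the summed FPKM of the 4 synthetases, Acsl1 made up 86.7, 85.5 and 85.9% in PKI libraries, against 91.2, 90.6 and 93.1% in WT libraries. The share of Acsl5 was 6.72, 6.78 and 7.24% in PKI libraries, against 4.08, 3.82 and 3.42% in WT libraries. For both shares the groups did not overlap.

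Acss1, the mitochondrial enzyme that joins acetate to coenzyme A, was lower in PKI libraries. It read 47.5, 49.3 and 44.9 FPKM in PKI libraries, against 58.2, 60.5 and 66.1 FPKM in WT libraries, 1.30-fold lower (log2 change −0.38, SE 0.07, adjusted p = 0.00763; after scaling log2 change −0.64, adjusted p = 0.00189), with no overlap between the groups.

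In the carnitine shuttle, 3 of 5 members fell as deposited (60%, against 2.96% of all tested genes). After scaling, 4 were lower (80%, against 8.23%). Crat, which interconverts acetyl-CoA and acetylcarnitine, had the largest fall of the 5: 45.0, 42.6 and 42.4 FPKM in PKI libraries, against 54.8, 56.1 and 58.8 FPKM in WT libraries (log2 change −0.38, SE 0.058, adjusted p = 0.00424; after scaling log2 change −0.64, adjusted p = 0.00142). Its highest PKI value lay well under its lowest WT value.

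Cpt1b, the muscle form of the enzyme that commits acyl groups to mitochondrial entry, read 92.4, 90.6 and 90.5 FPKM in PKI libraries, against 101, 103 and 104 FPKM in WT libraries. The groups were tight and apart, and a 1.12-fold difference passed (log2 change −0.17, SE 0.048, adjusted p = 0.0334; after scaling log2 change −0.44, adjusted p = 0.00218). As deposited the call was lost without each library other than WT replicate 1 (adjusted p = 0.0694 to 0.102). Cpt1a, the liver form, read 7.22, 8.70 and 6.36 FPKM in PKI libraries, against 8.09, 5.43 and 6.95 FPKM in WT libraries, with overlapping groups (log2 change 0.11, SE 0.15, adjusted p = 0.562, 95% interval −0.24 to 0.47). Its sign turned after scaling (log2 change −0.13, adjusted p = 0.607) and without WT replicate 2 (log2 change −0.022). The ratio of Cpt1b to Cpt1a was 12.8, 10.4 and 14.2 in PKI libraries, against 12.5, 18.9 and 14.9 in WT libraries, and the groups overlapped, so that no change of isoform balance was detectable with 3 libraries a group.

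Cpt2, the inner membrane partner that releases the acyl-CoA, read 35.4, 26.0 and 29.3 FPKM in PKI libraries, against 34.6, 31.9 and 34.1 FPKM in WT libraries. The groups overlapped, and it did not pass as deposited (log2 change −0.15, SE 0.11, adjusted p = 0.287) but was lower after scaling (log2 change −0.42, adjusted p = 0.0440). It passed neither when scaled to the FPKM total of nuclear genes (adjusted p = 0.0609) nor with quantile normalisation (adjusted p = 0.0504). As deposited its log2 change was −0.27 without PKI replicate 1 and −0.054 without PKI replicate 2. Slc22a5, the plasma membrane carnitine transporter OCTN2, fell 1.28-fold, at 3.46, 3.57 and 3.48 FPKM in PKI libraries, against 4.87, 4.53 and 4.07 FPKM in WT libraries (log2 change −0.28, SE 0.075, adjusted p = 0.0247; after scaling log2 change −0.50, adjusted p = 0.00507). Its call as deposited was lost without PKI replicate 1, PKI replicate 3, WT replicate 1 or WT replicate 2 (adjusted p = 0.0596 to 0.0692).

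The acyl-CoA dehydrogenases start each round of the spiral, and are given here by chain length. Acadm, the medium-chain enzyme, fell 1.32-fold: 167, 169 and 160.3 FPKM in PKI libraries, against 220.4, 209.7 and 223 FPKM in WT libraries (log2 change −0.40, SE 0.052, adjusted p = 0.00239; after scaling log2 change −0.67, adjusted p = 0.000885). Acadvl, the very-long-chain enzyme of the inner membrane, fell 1.23-fold, at 151, 148 and 143 FPKM in PKI libraries, against 185, 165 and 193 FPKM in WT libraries (log2 change −0.29, SE 0.069, adjusted p = 0.0167; after scaling log2 change −0.56, adjusted p = 0.00244). In both genes every PKI library lay below every WT library; the call of Acadvl was lost without PKI replicate 3 (adjusted p = 0.0582) or WT replicate 3 (adjusted p = 0.0555).

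Acadl, the long-chain enzyme and the member with the highest mean in both groups, did not pass as deposited. It read 316, 331 and 314 FPKM in PKI libraries, against 355, 306 and 325 FPKM in WT libraries, and the groups overlapped (log2 change −0.034, SE 0.066, adjusted p = 0.695, 95% interval −0.19 to 0.12). After scaling it was lower (log2 change −0.31, adjusted p = 0.0157), and without WT replicate 1 its log2 change as deposited was 0.024. It passed narrowly when scaled to the FPKM total of nuclear genes (adjusted p = 0.0499) but not with quantile normalisation (adjusted p = 0.188). Acads, the short-chain enzyme, varied most within groups, at 44.0, 28.9 and 28.9 FPKM in PKI libraries, against 35.0, 34.5 and 44.4 FPKM in WT libraries. PKI replicate 1 and WT replicate 3 read alike and above the other libraries, and the gene passed neither as deposited nor after scaling (log2 change −0.18, SE 0.18, adjusted p = 0.444; after scaling log2 change −0.44, adjusted p = 0.147).

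Acadsb, which acts on short branched acyl-CoA from isoleucine, fell 1.28-fold (7.32 ± 0.250 FPKM in PKI and 9.36 ± 0.576 FPKM in WT, SD, n = 3 each; log2 change −0.31, SE 0.069, adjusted p = 0.0136; after scaling log2 change −0.56, adjusted p = 0.00222). Acad11, a family member that handles longer chains, read 13.9, 12.0 and 12.5 FPKM in PKI libraries, against 11.8, 11.0 and 11.5 FPKM in WT libraries. All 3 PKI values lay just above the WT values, yet it did not pass (log2 change 0.15, SE 0.073, adjusted p = 0.149), and its sign turned after scaling (log2 change −0.11, adjusted p = 0.370).

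Acadm lies at chromosome 3: 153922357 to 153944632, minus strand (GRCm38). Its promoter window from RefSeq (GRCm38.p6, minus strand, chr3:153944594-153944893) is shown because it is 1 of 2 member promoters, with Acacb, that hold the ERR site AAGGTCA. The capitals mark that match, which lies on the opposite strand as TGACCTT and begins 249 bases before the start. In Acacb the match lies after the start, at the end of the window. The Acacb window (chr5:114165268-114165567) lies inside the gene as positioned (114146535 to 114250761, GRCm38). The window of Etfdh (minus strand, chr3:79628718-79629017) is shown for its palindromic NRF1 site GCGCATGCGC, in capitals, 128 bases before the RefSeq start, which Acad10 also holds. The gene as positioned (79603788 to 79629500, GRCm38) contains this whole window, so the 2 annotations differ on its start.

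Acadm promoter: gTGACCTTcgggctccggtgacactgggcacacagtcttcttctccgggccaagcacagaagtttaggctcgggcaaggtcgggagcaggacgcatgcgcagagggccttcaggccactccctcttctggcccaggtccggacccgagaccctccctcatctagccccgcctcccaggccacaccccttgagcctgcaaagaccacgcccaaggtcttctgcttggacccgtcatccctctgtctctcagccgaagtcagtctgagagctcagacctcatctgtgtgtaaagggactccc
Etfdh promoter: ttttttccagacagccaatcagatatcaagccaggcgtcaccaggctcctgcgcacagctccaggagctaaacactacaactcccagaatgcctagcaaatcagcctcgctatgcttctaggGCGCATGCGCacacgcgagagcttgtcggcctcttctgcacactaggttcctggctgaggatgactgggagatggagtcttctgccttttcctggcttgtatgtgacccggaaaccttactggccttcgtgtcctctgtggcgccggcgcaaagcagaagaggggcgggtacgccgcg

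Windows of 300 bases were found for 27 of the 32 members (28 windows, since Acsl1 has 2), searched on both strands. The site AAGGTCA was in 2 of the 28, against 4.72% of 32851 mouse windows of that length, and GCGCATGCGC in 2, against 0.971%. The full ERR element TCAAGGTCA, which contains it, and the direct repeat AGGTCANAGGTCA bound by PPARs with RXR were in 0 of the 28, and in 0.423% and 0.0396% of all windows. Elements outside these windows were not searched.

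The later reactions of the spiral held the largest fall of all members. Acaa2, the thiolase that releases acetyl-CoA from medium-chain ketoacyl-CoA, fell 1.67-fold: 191, 168 and 169 FPKM in PKI libraries, against 296, 270.3 and 315 FPKM in WT libraries (log2 change −0.74, SE 0.078, adjusted p = 0.00121; after scaling log2 change −1.01, adjusted p = 0.000988). The lowest WT value was far above the highest PKI value. Hadh, the hydroxyacyl-CoA dehydrogenase of shorter chains, fell 1.33-fold, at 64.7, 60.1 and 61.6 FPKM in PKI libraries, against 85.2, 79.0 and 84.0 FPKM in WT libraries (log2 change −0.41, SE 0.059, adjusted p = 0.00341; after scaling log2 change −0.68, adjusted p = 0.00126). Echs1, the hydratase of shorter chains, was nearly level at 22.5, 22.7 and 22.5 FPKM in PKI libraries, against 22.1, 22.8 and 24.6 FPKM in WT libraries. The groups overlapped (log2 change −0.037, SE 0.062, adjusted p = 0.645, 95% interval −0.18 to 0.11); after scaling it was lower (log2 change −0.30, adjusted p = 0.0221), and as deposited its log2 change was 0.0049 without WT replicate 3.

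Hadha and Hadhb encode the alpha and beta subunits of the mitochondrial trifunctional protein, which carries out the last 3 steps of each round on long chains. The 2 genes lie head to head on chromosome 5 (Hadha 30118304 to 30155162, minus strand; Hadhb 30155248 to 30184593, plus strand; GRCm38). Hadha fell 1.27-fold, at 77.8, 77.1 and 73.7 FPKM in PKI libraries, against 104, 89.8 and 96.0 FPKM in WT libraries (log2 change −0.33, SE 0.067, adjusted p = 0.00999; after scaling log2 change −0.61, adjusted p = 0.00159). Hadhb read 107, 107 and 103 FPKM in PKI libraries, against 133, 106 and 121 FPKM in WT libraries, where WT replicate 2 lay among the PKI libraries, and did not pass as deposited (log2 change −0.18, SE 0.086, adjusted p = 0.130). It was lower after scaling (log2 change −0.45, adjusted p = 0.0110) and without WT replicate 2 (log2 change −0.27, adjusted p = 0.0337). Their ratio does not depend on scaling: Hadhb over Hadha was 1.37, 1.39 and 1.40 in PKI libraries, against 1.29, 1.18 and 1.26 in WT libraries, without overlap.

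The Hadhb promoter window is printed because it overlaps that of Hadha. By the gene positions above, Hadha begins at 30155162, inside this window, so part of the overlap lies within that gene. The Hadhb window (RefSeq, GRCm38.p6, plus strand, chr5:30155003-30155302) overlaps the Hadha window (minus strand, chr5:30154931-30155230) by 228 bases, shown in capitals.

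Hadhb promoter: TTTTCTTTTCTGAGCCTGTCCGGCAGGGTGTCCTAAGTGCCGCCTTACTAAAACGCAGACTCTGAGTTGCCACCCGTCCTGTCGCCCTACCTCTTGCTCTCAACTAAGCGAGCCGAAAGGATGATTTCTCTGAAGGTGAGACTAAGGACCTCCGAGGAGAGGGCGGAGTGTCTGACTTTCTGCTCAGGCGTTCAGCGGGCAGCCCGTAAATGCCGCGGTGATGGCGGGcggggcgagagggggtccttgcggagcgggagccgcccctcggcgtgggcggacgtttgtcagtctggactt

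The 3 auxiliary enzymes, which move or reduce double bonds so that unsaturated fatty acids can enter the spiral, all fell. Of all tested genes, 2.96% fell as deposited and 8.23% were lower after scaling. Ech1, a dienoyl-CoA isomerase also found in peroxisomes, read 184, 176 and 168 FPKM in PKI libraries, against 296, 266 and 314 FPKM in WT libraries, 1.66-fold lower (log2 change −0.73, SE 0.074, adjusted p = 0.00106; after scaling log2 change −0.998, adjusted p = 0.000823). Decr1, the mitochondrial dienoyl-CoA reductase, fell 1.46-fold: 53.8, 53.1 and 51.4 FPKM in PKI libraries, against 83.0, 68.5 and 79.0 FPKM in WT libraries (log2 change −0.53, SE 0.08, adjusted p = 0.00388; after scaling log2 change −0.80, adjusted p = 0.00142). Eci1, the enoyl-CoA isomerase, fell 1.41-fold, at 100.3, 88.0 and 92.6 FPKM in PKI libraries, against 130.3, 129 and 136 FPKM in WT libraries (log2 change −0.49, SE 0.064, adjusted p = 0.00241; after scaling log2 change −0.76, adjusted p = 0.00129). In each of the 3 the groups were fully apart. Every PKI library lay below every WT library in 4.53% of all tested genes as deposited and 18.4% after scaling. Against Echs1, the hydratase of shorter chains, the ratio of Ech1 was 8.16, 7.75 and 7.48 in PKI libraries, against 13.3, 11.6 and 12.8 in WT libraries.

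**Figure D3:**
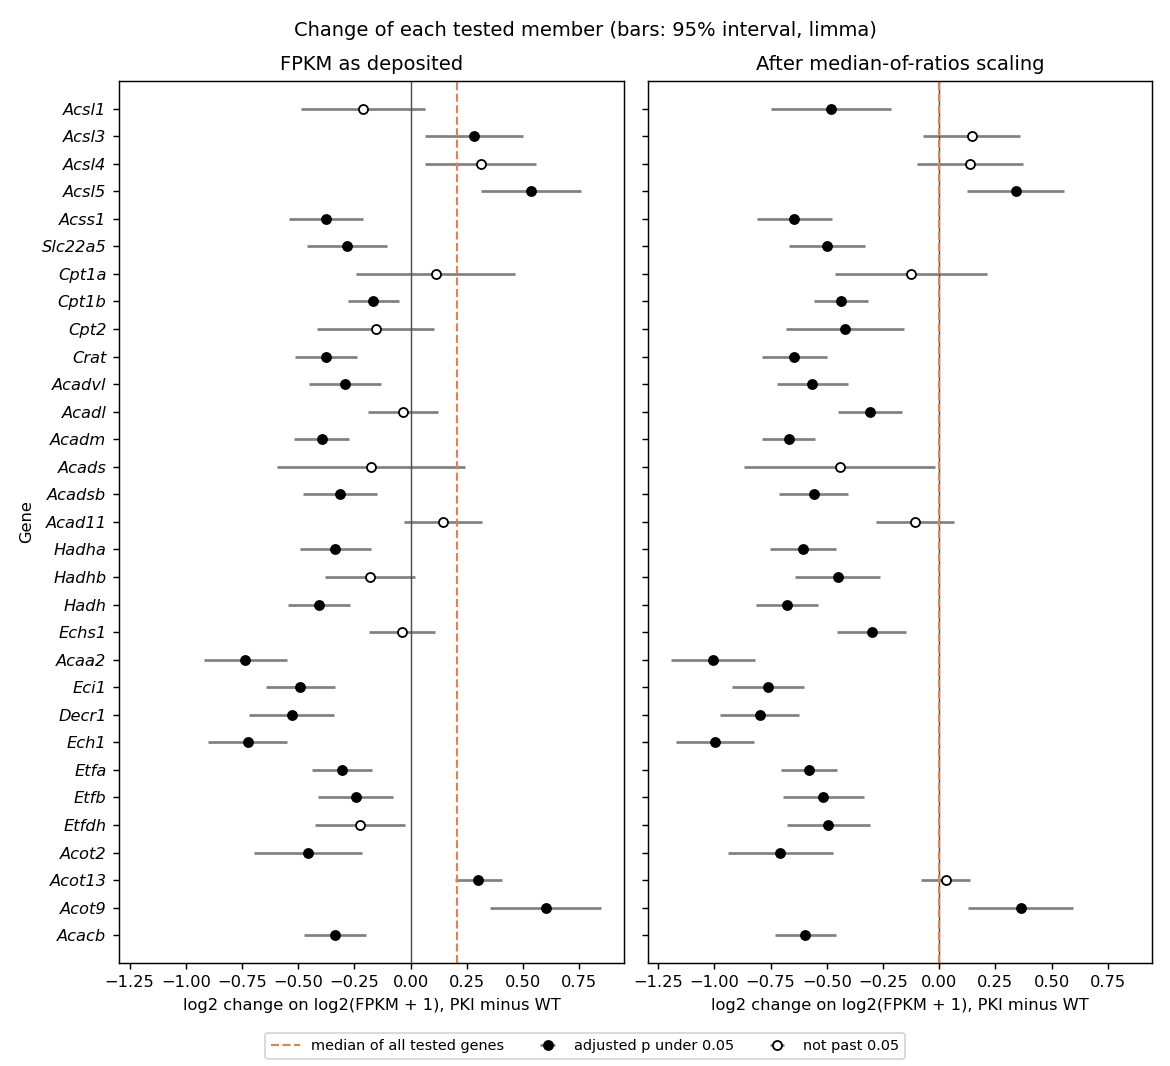
Log2 change of each tested member, PKI minus WT, on log2(FPKM + 1) with 95% intervals, as deposited (left) and after scaling (right); filled points pass an adjusted p under 0.05 and the dashed line is the median of all tested genes. Acaa2, Ech1, Decr1 and Eci1 lie furthest to the left in both panels, and Acsl5 and Acot9 are the filled points right of 0 in both.

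Of the 3 electron transfer genes, 2 fell as deposited (66.7%, against 2.96% of all tested genes). After scaling, all 3 were lower (100%, against 8.23%). Etfa, the alpha subunit of the electron transfer flavoprotein, fell 1.24-fold, at 157, 161 and 152 FPKM in PKI libraries, against 203, 184 and 195 FPKM in WT libraries (log2 change −0.31, SE 0.057, adjusted p = 0.00801; after scaling log2 change −0.58, adjusted p = 0.00138). Etfb, the beta subunit, fell 1.19-fold, at 143, 145 and 158 FPKM in PKI libraries, against 168, 171 and 190.4 FPKM in WT libraries (log2 change −0.24, SE 0.071, adjusted p = 0.0323; after scaling log2 change −0.52, adjusted p = 0.00572). The groups did not overlap in either gene, and the call of Etfb as deposited was lost without PKI replicate 1, PKI replicate 2, WT replicate 2 or WT replicate 3 (adjusted p = 0.0573 to 0.0942). Etfdh, which hands the electrons to ubiquinone, read 50.7, 58.4 and 51.2 FPKM in PKI libraries, against 67.6, 57.4 and 62.6 FPKM in WT libraries. PKI replicate 2 lay above WT replicate 2, and the gene did not pass as deposited (log2 change −0.22, SE 0.085, adjusted p = 0.0733) but was lower after scaling (log2 change −0.49, adjusted p = 0.00730) and without PKI replicate 2 (adjusted p = 0.0447).

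The thioesterases, which split acyl-CoA back to free acid and coenzyme A, went in opposite directions. Acot9, a mitochondrial form, rose 1.61-fold, at 7.70, 9.50 and 8.84 FPKM in PKI libraries, against 6.08, 4.77 and 5.31 FPKM in WT libraries (log2 change 0.60, SE 0.10, adjusted p = 0.00620; after scaling log2 change 0.36, adjusted p = 0.0489). Acot2, the matrix form for long chains, fell 1.42-fold, at 8.92, 8.41 and 9.43 FPKM in PKI libraries, against 14.6, 11.1 and 12.3 FPKM in WT libraries (log2 change −0.46, SE 0.10, adjusted p = 0.0142; after scaling log2 change −0.71, adjusted p = 0.00466). Acot2 closely resembles its neighbour Acot1, and how the authors divided reads between them is not given in the sources used here, so its value is uncertain. The ratio of Acot2 to Acot9 was 1.16, 0.885 and 1.07 in PKI libraries, against 2.40, 2.34 and 2.32 in WT libraries, and WT libraries all lay above PKI libraries.

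Acot13, a thioesterase associated with mitochondria, had the tightest values of the list. It read 215, 218 and 216 FPKM in PKI libraries, against 175, 176 and 175 FPKM in WT libraries and was 1.23-fold higher as deposited (log2 change 0.30, SE 0.045, adjusted p = 0.00368), but that is close to the all-gene median, and after scaling no difference passed (log2 change 0.029, adjusted p = 0.726). By level it was second among members in PKI and eighth in WT. Acacb, whose malonyl-CoA inhibits CPT1 at the outer membrane, fell 1.28-fold: 14.7, 14.7 and 14.3 FPKM in PKI libraries, against 18.4, 18.2 and 19.3 FPKM in WT libraries (log2 change −0.34, SE 0.058, adjusted p = 0.00600; after scaling log2 change −0.60, adjusted p = 0.00144).

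**Figure D4:**
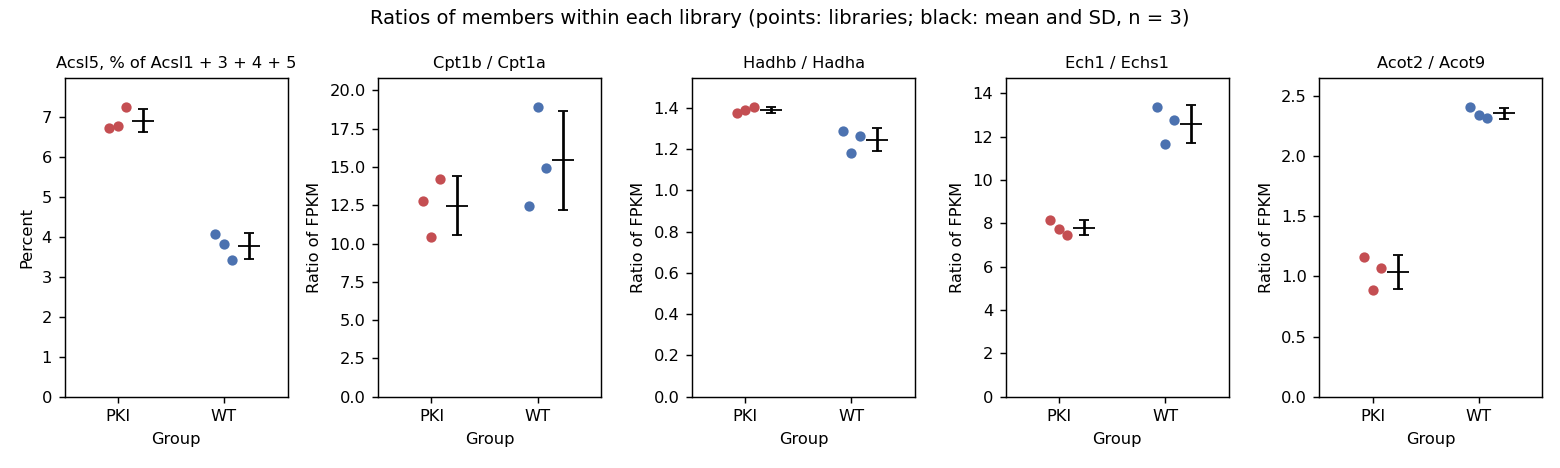
Ratios of FPKM between members within each library, PKI left of WT, with the mean and SD in black. The share of Acsl5 and the ratio of Hadhb to Hadha are higher in all PKI libraries, the ratios of Ech1 to Echs1 and Acot2 to Acot9 are lower, and the ratio of Cpt1b to Cpt1a overlaps.

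Summed over all 32 members, fatty acid oxidation genes took 1.48% ± 0.0312 in PKI and 2.11% ± 0.112 in WT of the FPKM of nuclear genes (SD, n = 3 each). The acyl-CoA dehydrogenases took the largest share, 0.437% ± 0.0132 in PKI and 0.579% ± 0.0333 in WT, and the auxiliary enzymes 0.205% ± 0.00776 in PKI and 0.368% ± 0.0252 in WT. The later spiral enzymes held 0.281% ± 0.00997 in PKI and 0.454% ± 0.0309 in WT, and electron transfer 0.228% ± 0.00648 in PKI and 0.318% ± 0.0136 in WT. Activation held 0.0608% ± 0.00312 in PKI and 0.0846% ± 0.00730 in WT and the carnitine steps 0.112% ± 0.00359 in PKI and 0.150% ± 0.00257 in WT. In these 6 steps every PKI library lay below every WT library. The activation sum is mostly Acsl1 and Acss1, the latter acting on acetate. Acsl3, Acsl4 and Acsl5 lay higher in PKI as deposited, and the median log2 change over the activation members was 0.28 (0.14 after scaling). The thioesterases with Acacb, at 0.158% ± 0.00296 in PKI and 0.156% ± 0.00151 in WT, overlapped, and that sum is mostly Acot13. The nuclear total was itself higher in PKI, at 155718 to 158661 FPKM against 135646 to 136011 FPKM in WT. In FPKM as deposited, the thioesterases with Acacb summed to 247 to 251 in PKI and 210 to 214 in WT, without overlap. The other 6 steps lay lower in every PKI library as deposited too. These shares and sums are descriptions without a test.

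**Figure D5:**
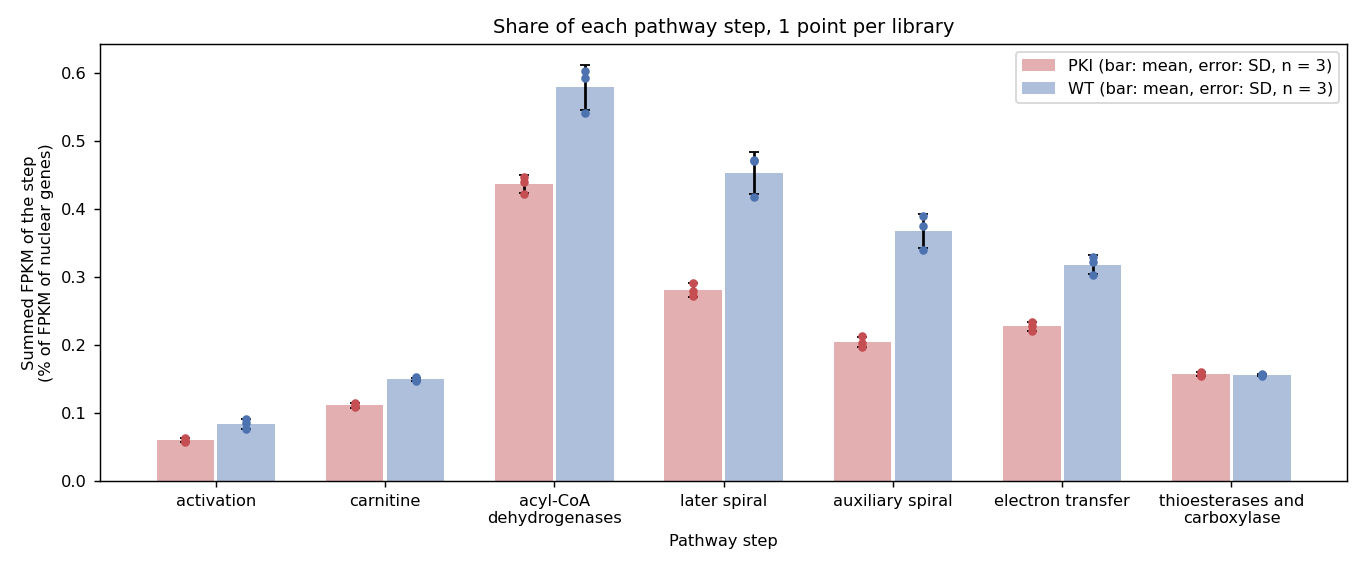
Summed FPKM of each pathway step as a percent of the FPKM of nuclear genes, PKI left of WT; bars are means, error bars SD (n = 3) and points libraries. The PKI points lie below the WT points in every step other than the thioesterases and carboxylase, at 0.158% and 0.156%.

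Related genes outside the list were read in the same fits. Of 29 tested genes of fatty acid handling, 5 fell (17.2%, against 2.96% of all tested genes) and 2 rose (6.9%, against 36.4%) as deposited, and their median log2 change was −0.089; 15 were lower once scaled (51.7%, against 8.23%), at a median of −0.35. Slc25a20, the carnitine-acylcarnitine carrier that links CPT1 to CPT2, fell: 17.2, 16.7 and 16.7 FPKM in PKI libraries, against 24.2, 19.8 and 22.2 FPKM in WT libraries (log2 change −0.36, SE 0.081, adjusted p = 0.0147; after scaling log2 change −0.62, adjusted p = 0.00284). Its fall was of the size seen in Crat.

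Mlycd, the decarboxylase that removes malonyl-CoA, fell along with Acacb, which makes it (13.5 ± 1.42 FPKM in PKI and 17.2 ± 1.75 FPKM in WT, SD, n = 3 each; log2 change −0.33, SE 0.10, adjusted p = 0.0385; after scaling log2 change −0.59, adjusted p = 0.00923). Acat1, the thiolase of acetoacetyl-CoA, fell (log2 change −0.26, SE 0.063, adjusted p = 0.0188; after scaling log2 change −0.53, adjusted p = 0.00216), as did Slc27a1, a fatty acid transport protein (log2 change −0.28, SE 0.073, adjusted p = 0.0239; after scaling log2 change −0.52, adjusted p = 0.00426). As deposited the call of Mlycd was lost without PKI replicate 2, PKI replicate 3, WT replicate 1 or WT replicate 3 (adjusted p = 0.0926 to 0.115), that of Acat1 without PKI replicate 3 or WT replicate 3 (adjusted p = 0.0618 and 0.0644), and that of Slc27a1 without PKI replicate 2, PKI replicate 3, WT replicate 1 or WT replicate 3 (adjusted p = 0.0567 to 0.0627). The fifth that fell was Hsdl2, and those that rose were Crot and Acss2, named after their values were seen; the call of neither Crot nor Acss2 held after scaling (adjusted p = 0.574 and 0.766).

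Among 16 regulators of the pathway, 3 fell (18.8%, against 2.96% of all tested genes) and 1 rose (6.25%, against 36.4%) as deposited, and 4 were lower after scaling (25%, against 8.23%). Their median log2 change was 0.066 as deposited and −0.17 after scaling. Ppara, the PPARα gene itself, read 3.34, 3.59 and 3.93 FPKM in PKI libraries, against 4.84, 5.44 and 4.62 FPKM in WT libraries (log2 change −0.37, SE 0.084, adjusted p = 0.0149; after scaling log2 change −0.59, adjusted p = 0.00530). All PKI libraries lay below all WT libraries. Rxra, its dimer partner, fell (5.41 ± 0.469 FPKM in PKI and 6.61 ± 0.375 FPKM in WT, SD, n = 3 each; log2 change −0.25, SE 0.079, adjusted p = 0.0439; after scaling log2 change −0.48, adjusted p = 0.00789). Klf15, a transcription factor of cardiac lipid metabolism, fell to 6.85, 6.75 and 7.06 FPKM in PKI libraries, against 8.64, 11.0 and 8.42 FPKM in WT libraries (log2 change −0.38, SE 0.10, adjusted p = 0.0239; after scaling log2 change −0.63, adjusted p = 0.00887). Prkaa1, the minor catalytic subunit of AMPK in heart, rose as deposited (3.45 ± 0.527 FPKM in PKI and 2.31 ± 0.0798 FPKM in WT; log2 change 0.42, SE 0.10, adjusted p = 0.0150) but not once scaled (adjusted p = 0.153). As deposited the call of Rxra was lost without each library other than PKI replicate 2 (adjusted p = 0.0565 to 0.130) and that of Klf15 without any 1 PKI library (adjusted p = 0.0576 to 0.0625). The fourth regulator lower after scaling was Ppargc1a. The order of these changes relative to those of the enzymes cannot be told apart at 1 age.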

How the data were processed

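RNA of left ventricles was sequenced in 6 libraries. Per the labels' protocols, hearts were frozen in liquid nitrogen, RNA was extracted with Trizol, and the Illumina TruSeq RNA kit was used on total RNA. The deposited values are FPKM per gene made by the authors, per the file headers; CASAVA, Bowtie 0.12.2 and build mm9 are named in the submitters' processing notes, in roles not stated. The program that made the FPKM is not given in the sources used here. Both deposited gene tables hold the same values. Positions come from GENCODE M21 of GRCm38 by gene identifier (52403 of 52550 identifiers matched) and promoters by symbol in RefSeq, without converting builds.

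The 9907 genes averaging 1 FPKM or more over the libraries entered limma 3.58.1 (R 4.3.3) as log2(FPKM + 1), in a two-sided test using a variance trend and Benjamini-Hochberg adjustment over all of them; all adjusted p-values are from limma. Changes of low genes are understated on this scale. A fold is the ratio of group means in FPKM. "After scaling" means FPKM divided by median-of-ratios size factors over the tested genes. Whole reads could not be recovered for each gene, so no counting interval is given; relative depth came from the most common ratio of values in genes under 0.1 FPKM. Other settings are given at the end. The fit was tested on simulated data.

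The members, lists, regulators and markers were chosen with earlier results of these data known. All members were named, and of the related genes and regulators the 4 with the smallest p. The ratios other than those of Cpt1 and Acsl genes were chosen after the values were seen. The interval summary table was not used. Reads of overlapping antisense genes cannot be told apart, as the kit does not mark strand.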

Additional observations from a re-analysis of the deposited data

How the results depend on the processing

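In all 17 settings, the one reported included, 13 members were called lower: Acss1, Crat, Acadm, Acadsb, Hadha, Hadh, Acaa2, Eci1, Decr1, Ech1, Etfa, Acot2 and Acacb. The share of all tested genes called lower in every setting was not computed. The count of members lower ranged from 14 to 23 and their median log2 change stayed negative. The choice of scaling moved most. Under median-of-ratios scaling, 1661 genes were called (815 lower, 846 higher), 2 members were higher and the members' median was −0.50. Scaled to the nuclear total, 1622 were called (603 lower, 1019 higher), 2 members were higher and the median was −0.45. With quantile normalisation, 1515 were called (762 lower, 753 higher), the median was −0.43, and limma called 0 members higher, against 3 at an unadjusted p under 0.05. Under these 3 scalings Cpt1a turned to −0.13, −0.073 and −0.13 and Acad11 to −0.11, −0.051 and −0.12. At a minimum mean of 5 FPKM, 1925 of the 3935 genes tested were called (186 lower, 1739 higher). Of the 27 members tested there, 16 were lower and 2 higher. Leaving out 1 library gave 2344 to 3425 calls (165 to 263 lower, 2179 to 3162 higher), fewest without WT replicate 3, and next without PKI replicate 3 (2498); members lower ranged from 14 to 16 and higher from 3 to 4. Over these fits Acadl ranged from −0.084 to 0.024, Cpt1a from −0.022 to 0.23 and Echs1 from −0.069 to 0.0049, while Cpt2 ranged from −0.27 to −0.054, Acads from −0.37 to −0.061, Acsl1 from −0.35 to −0.13 and Hadhb from −0.27 to −0.10.

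Replicate numbers did not pair the libraries: deviations of same-numbered libraries correlated at −0.10, 0.0012 and 0.053. With a replicate block, 15 members were lower and 3 higher, and 2849 of 9907 genes were called (224 lower, 2625 higher). Pseudocounts of 0.1 and 0.5, no filter, no variance trend and array weights kept every count within 1.5 times, but some single calls changed. Slc22a5, Etfb, Acsl3, Klf15, Mlycd and Rxra were lost with no filter (adjusted p = 0.0523, 0.0711, 0.115, 0.0620, 0.0912 and 0.0835), Cpt1b with no variance trend (0.0614) and Acsl3 at both pseudocounts (0.0560 and 0.0502). Acsl4 was higher at a pseudocount of 0.1 (0.0497), with no variance trend (0.0475) and with array weights (0.0314), and Etfdh lower with array weights (0.0345). The block lost Acsl3, Cpt1b, Slc22a5 and Rxra (0.0537, 0.0969, 0.0547 and 0.0795), and quantile normalisation Acsl5 and Acot9 (0.0695 and 0.0554). With 3 libraries a group and unknown read totals, differences as small as that of Cpt1b rest on the tightness of few values.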
